A study of Mus musculus with 6 samples.

Results

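The genes of the NFAT transcription factors, of the phosphatase calcineurin that switches them on and of the RCAN proteins that bind calcineurin were followed through RNA-seq libraries of γδ thymocytes. They were picked by name: *Nfatc1*, *Nfatc2*, *Nfatc3* and *Nfat5* for the NFAT factors, *Ppp3ca*, *Ppp3cb* and *Ppp3r1* for calcineurin, and *Rcan1*, *Rcan2* and *Rcan3* for its regulators. All 10 were found among the 41195 genes counted in each of 6 libraries, and 9 had enough reads to be tested. The series compared γδ thymocytes, thymic T cell precursors with a γδ T cell receptor (TCR), of 2 genotypes. Mice were 4 to 6 weeks old, on the C57/B6 background, and both groups carried the floxed allele *Nfatc1fl/fl*, in which loxP sites flank exon 3 of *Nfatc1*. The 3 control libraries were labelled *Nfatc1fl/fl* with no Cre. The other 3 were labelled *Rag1Cre-Nfatc1fl/fl* and are called the Cre-labelled libraries here, since the Cre recombinase in those mice is made from the *Rag1* locus, which is active in early thymocytes. Cells were enriched with a magnetic TCRγ/δ kit, and the labels name no further sort. Whether the 3 libraries of a group are from separate mice is not in the labels. A p-value here therefore covers the spread among these libraries alone, and part of that spread may be technical.

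NFAT factors sit in the cytoplasm of resting T cells in a phosphorylated form. When the TCR raises cytoplasmic calcium, calcineurin, a dimer of a catalytic A subunit and the calcium-binding regulatory B subunit, removes the phosphates and the factors enter the nucleus, where they bind DNA with partners such as AP-1. *Nfat5* is the exception: it lacks the calcineurin-binding region and responds to osmotic stress. The RCAN proteins bind calcineurin and can restrain it, and RCAN1 is known as a feedback regulator because a start site inside its own gene is driven by NFAT. In the thymus this pathway carries pre-TCR and TCR signals.

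The libraries held 20734771 to 22638531 gene reads. Cre-labelled replicate 3 stood apart from the other 2 of its group: the chi-square per degree of freedom between replicates was 71.3 and 64.0 for its pairs, against 7.95 to 17.9 for the other pairs. That library also held the highest share of reads from ribosomal protein genes, 18.1%, where the others held 9.83% to 13.8%, and in it the reads of long transcripts were lower. Calls of the 10 genes and of the pathway lists that change without it are given below both ways. The 8 markers of T cells and the γδ TCR were present throughout, with a summed level of 3095 to 3284 CPM (counts-per-million, scaled by TMM) in the controls and 3023 to 3101 in the Cre-labelled libraries. Of these markers *Trdc* and *Tcrg-C1*, constant regions of the δ and a γ chain, were lower by 0.80 and 0.65 on the log2 scale (edgeR adjusted p = 0.00352 and 0.00183). The other 6 were not called and went both ways, from -0.46 for *Cd247* to 0.56 for *Cd3d*. Among them the γ constant regions *Tcrg-C2* and *Tcrg-C4* were at -0.33 and 0.25. Markers of B cells, thymic epithelium, erythroid cells, macrophages and dendritic cells were low. The groups lay apart in the sum of 6 B cell markers, at 25.8 to 28.5 against 14.3 to 21.3 CPM, nearly all of it *Cd79b*. They also lay apart in that of 5 thymic epithelial markers, at 18.4 to 20.4 against 8.19 to 11.4 CPM, nearly all of it *Epcam*. The other epithelial markers, *Krt5*, *Krt8*, *Foxn1* and *Psmb11*, went the other way. Their means were 0.0287 to 0.260 CPM in the controls and 0.0528 to 0.849 in the Cre-labelled libraries, too low to be tested. The groups overlapped in the sum of 4 erythroid markers, at 2.99 to 19.8 against 5.78 to 37.5 CPM. The 8 macrophage and dendritic cell markers overlapped as well, with sums of 14.3 to 44.9 CPM in the controls and 25.7 to 113 CPM in the Cre-labelled libraries and the highest sum in replicate 3. The 9 markers of αβ double-positive thymocytes, which include the TCR β constant regions, were not low. Their sums were 1614 to 1627 against 1144 to 1926 CPM, again highest in Cre-labelled replicate 3. No marker was at 0 in all libraries, and the B cell gene *Ms4a1* was at 0 in every control library. The part these markers had in the results was not tested, and in bulk RNA fewer cells of a type and less RNA per cell cannot be told apart.

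Start sites of *Rcan1* and *Rcan3* are shown first, because the RCAN genes are known as the point where the pathway feeds back on itself. The windows are the 250 bases before a start site in RefSeq (GRCm38.p6, the build of the tables), written 5′ to 3′ on the strand of the gene, with the core of the NFAT site, GGAAA, or its reverse complement, TTTCC, in capitals. Both *Rcan1* windows and the *Rcan3* window lie on the minus strand.
*Rcan1*, first start site, chr16:92466170-92466419: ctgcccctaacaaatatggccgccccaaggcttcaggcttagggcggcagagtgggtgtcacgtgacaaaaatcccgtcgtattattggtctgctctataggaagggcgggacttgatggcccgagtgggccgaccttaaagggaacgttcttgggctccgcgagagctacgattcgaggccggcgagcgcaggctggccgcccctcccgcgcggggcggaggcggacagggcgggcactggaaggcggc
*Rcan1*, start site within the gene, chr16:92400079-92400328: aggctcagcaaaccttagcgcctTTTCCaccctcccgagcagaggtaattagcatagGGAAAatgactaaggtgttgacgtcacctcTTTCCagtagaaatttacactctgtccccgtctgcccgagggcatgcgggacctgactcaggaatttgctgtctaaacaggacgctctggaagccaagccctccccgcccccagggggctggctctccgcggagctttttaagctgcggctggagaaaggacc
*Rcan3*, chr4:135433806-135434055: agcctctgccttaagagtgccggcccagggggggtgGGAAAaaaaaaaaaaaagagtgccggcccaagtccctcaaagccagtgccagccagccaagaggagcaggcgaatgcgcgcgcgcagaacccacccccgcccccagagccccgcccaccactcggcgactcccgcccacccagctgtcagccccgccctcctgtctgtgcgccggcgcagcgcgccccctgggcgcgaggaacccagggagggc
The window before the first start site of *Rcan1* held no copy of the motif. The start site within the gene, 66068 bases from the gene's start in the tables, had 3 copies, a number reached in 6.39% of all 32851 windows. The *Rcan3* window had 1 copy, which abuts a run of A bases, and 55.6% of all windows held at least 1. Among the other genes, 3 copies were found before *Ppp3cb* and before the first start site of *Nfatc2*, and 2 before *Nfat5* and before the first start site of *Rcan2*. The other *Rcan2* windows held none, and the gene's windows are not printed because it was hardly detected. A match of 5 letters is a description of the sequence, not a bound site. *Nfatc1* and *Ppp3ca* had no entry, so 8 of the 10 genes and 13 windows were scanned.

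Genotypes were compared on gene reads with edgeR's quasi-likelihood test, and a gene was called changed at a Benjamini-Hochberg adjusted p under 0.01 and a log2 fold change beyond 0.5 in either direction, the limits the study set. *Nfatc1* and *Rcan3* were called, both higher in the Cre-labelled libraries, which made 2 of the 9 genes tested. Among all 13185 tested genes 9.98% were called, 6.47% as higher, and a count of 2 in 9 is not set apart from that background. No gene of the set was called lower by edgeR, DESeq2 or limma-voom, and 2, *Nfatc3* and *Nfat5*, were lower at an unadjusted p under 0.05 in edgeR. Such a p was common, since 4961 of all 13185 tested genes had it in that fit, in either direction. The groups did not overlap for 6 of the 9, which were *Nfatc1*, *Nfatc2* and *Rcan3* with higher and *Nfatc3*, *Nfat5* and *Ppp3cb* with lower CPM in the Cre-labelled libraries. In all tested genes this share was 46.7%. The median log2 fold change of the 9 genes was -0.06, and that of all tested genes -0.0069.

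**Figure D1:**
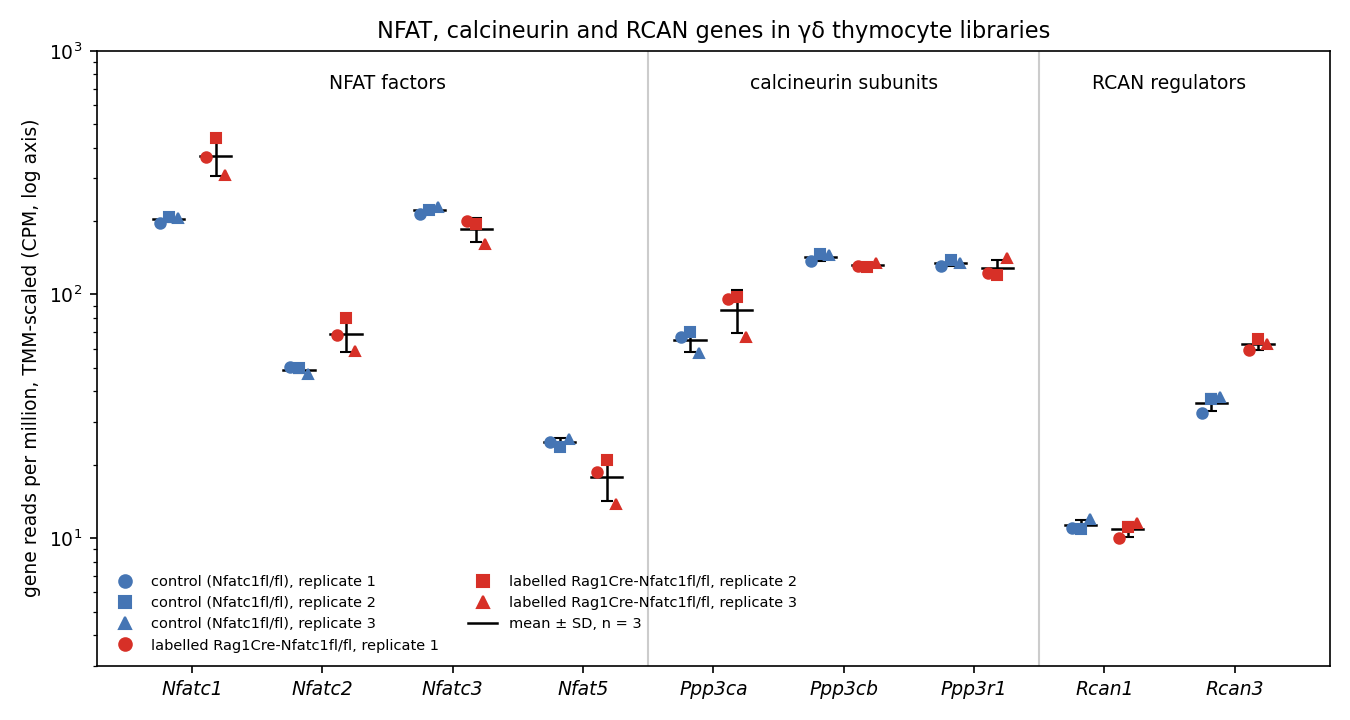
TMM-scaled CPM of gene reads on a log axis for the 9 tested genes, grouped by role, in each control library (blue) and each library labelled *Rag1Cre-Nfatc1fl/fl* (red), where marker shapes give the replicate and bars the mean ± SD (n = 3). The groups lie apart for *Nfatc1* (203 against 371 CPM) and *Rcan3* (36.0 against 62.5 CPM), and the red triangle of replicate 3 is the lowest red point for all 4 NFAT genes.

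*Nfatc1* RNA was higher, not lower, in the Cre-labelled libraries, whose cells the study describes as deficient in NFATc1. *Nfatc1* encodes the factor whose floxed exon the Cre targets, and lies on the minus strand of chromosome 18 with 13 exons in the tables. Its gene reads were 4581, 4736 and 4612 in control replicates 1, 2 and 3, and 7987, 9603 and 5872 in Cre-labelled replicates 1, 2 and 3. Scaled, this was 203 ± 5.75 against 371 ± 63.8 CPM (SD, n = 3 each). Every Cre-labelled library lay above every control, and the lowest of them was replicate 3. The log2 fold change was 0.87 with a standard error (SE) of 0.13, and the gene was called changed (edgeR quasi-likelihood test, adjusted p = 0.0028). The call held without any single Cre-labelled library and was lost without any single control. Over these fits the log2 fold change was 0.73 to 0.99 and the edgeR adjusted p up to 0.0209. Without 1 control 3.62% to 4.02% of all tested genes were called, against 9.98% with all 6 libraries. *Nfatc1* was not called by limma on log2(TPM + 1) or log2(TPM + 0.1), at 0.69 in both (limma adjusted p = 0.0668 and 0.0723). Those fits called 3.97% and 3.78% of all genes. All *Nfatc1* reads were unique and no other annotated gene overlaps it. A gene total adds the reads of all exons and so does not test whether exon 3 was removed, and reads of exon 3 alone were not analysed here. The gene total thus cannot decide whether the gene was ablated as the series describes, and the libraries are named by their labels throughout.

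Of the other NFAT genes none was called by edgeR, DESeq2 or limma-voom. *Nfatc2*, *Nfatc3* and *Nfat5* each had an unadjusted p under 0.05 in edgeR, as did 4961 of all 13185 tested genes. *Nfatc2*, which encodes the NFAT factor that resting T cells hold ready, had 1170, 1138 and 1063 gene reads in the controls and 1481, 1752 and 1108 in the Cre-labelled libraries. After scaling the groups did not overlap, at 47.3 to 50.3 against 58.5 to 79.7 CPM. Its log2 fold change was 0.48 (SE 0.12, edgeR adjusted p = 0.0245), short of both limits. Without Cre-labelled replicate 3 it was 0.60 and was called (edgeR adjusted p = 0.000562). *Nfatc3*, which encodes another calcineurin-dependent factor of thymocytes, pointed the other way, with 4956, 5071 and 5120 gene reads in the controls and 4369, 4262 and 3049 in the Cre-labelled libraries. The Cre-labelled libraries were all below the controls, replicate 3 the lowest, and the log2 fold change of -0.26 (SE 0.10) was not called (edgeR adjusted p = 0.108). *Nfat5*, the osmotic stress factor, had 579, 537 and 576 against 408, 459 and 263 gene reads. Its log2 fold change was -0.47 (SE 0.15, edgeR adjusted p = 0.0569), and replicate 3 was again the lowest, at 13.9 CPM against 18.7 and 20.9 CPM in the other Cre-labelled libraries. *Nfatc4*, the remaining family member, had too few reads to be tested.

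Levels of different genes were compared per transcript length, as transcripts-per-million (TPM) from exon reads. In the controls *Ppp3r1* led with 111 ± 6.32 TPM, followed by *Nfatc1* with 71.9 ± 4.28, *Nfatc3* with 49.99 ± 2.99 and *Ppp3cb* with 42.7 ± 2.76 (SD, n = 3). *Rcan3* and *Ppp3ca* came next, at 18.7 ± 1.99 and 16.9 ± 1.91 TPM, with ranges that overlapped, as did those of *Nfatc2* and *Rcan1*, at 12.2 ± 0.534 and 11.9 ± 0.772 TPM. *Nfat5* was the lowest gene detected in exons, at 3.44 ± 0.110 TPM. In the Cre-labelled libraries *Nfatc1* took the first place, with 119 ± 30.8 TPM, though its range overlapped that of *Ppp3r1*, at 94.5 ± 4.07 TPM. Below them *Nfatc3*, *Ppp3cb* and *Rcan3*, at 38.0 ± 8.41, 35.6 ± 3.59 and 29.3 ± 3.45 TPM, overlapped from each gene to the next.

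Within the NFAT family the share of *Nfatc1* was higher in the Cre-labelled libraries. *Nfatc1* made up 52.0%, 52.7% and 52.1% of the summed TPM of the 4 NFAT genes in the control replicates and 66.6%, 69.9% and 67.5% in the Cre-labelled replicates. The spread within a group was small beside the difference of 15.7 percentage points, and replicate 3 did not stand apart in this share. *Nfatc3* had a lower share, with 36.3 ± 0.576% in the controls and 21.8 ± 1.86% in the Cre-labelled libraries. Shares of a sum offset each other, so the shares of *Nfatc1* and *Nfatc3* are not independent. The TPM of *Nfatc3* itself was lower too, at 28.4 to 44.2 in the Cre-labelled libraries against 46.5 to 51.8 in the controls. Its difference in gene reads was not called. The summed TPM of the 4 genes was 138 ± 7.46 in the controls and 175 ± 42.9 in the Cre-labelled libraries. The share of *Nfatc2* was 8.90 ± 0.465% and 8.85 ± 0.167%, and that of *Nfat5* 2.503 ± 0.113% and 1.29 ± 0.104%. The exact two-sided permutation test of the *Nfatc1* share gave p = 0.1, the smallest value 3 against 3 libraries allow, and the same after adjustment over the 3 shares tested, so no share could pass 0.05.

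None of the 3 calcineurin genes was called by edgeR, DESeq2 or limma-voom. Among them 1, *Ppp3ca*, had an unadjusted p under 0.05 in edgeR, as did 4961 of all 13185 tested genes. *Ppp3ca*, the α form of the catalytic subunit, had 1556, 1591 and 1291 gene reads in the controls and 2091, 2139 and 1271 in the Cre-labelled libraries. Cre-labelled replicates 1 and 2 were above all controls in CPM while replicate 3, at 67.1 CPM, fell between the controls at 57.4 to 69.9 CPM. The log2 fold change was 0.42 (SE 0.16, edgeR adjusted p = 0.0867). Without replicate 3 it was 0.59, and *Ppp3ca* was called (edgeR adjusted p = 0.000745). *Ppp3cb*, the β form, had 3179, 3329 and 3259 against 2861, 2848 and 2556 gene reads. The log2 fold change was -0.11 (SE 0.077, adjusted p = 0.314 by edgeR). *Ppp3r1*, the regulatory B subunit, had 3055, 3150 and 3018 against 2679, 2642 and 2668 gene reads. The log2 fold change was -0.07 (SE 0.09, adjusted p = 0.581 by edgeR). The *Ppp3r1* count is the least certain of the set, since 84.8% to 86.8% of its reads were unique and *Wdr92*, with 1460 reads in the controls together, overlaps it on the same strand. *Ppp3cb* overlaps the antisense gene *1810062O18Rik*, with 277 reads in the controls together, and the library kit does not mark strand. Among the catalytic genes *Ppp3ca* made up 29.8%, 29.6% and 25.6% of the summed TPM in the controls and 38.9%, 39.5% and 30.2% in the Cre-labelled libraries, where replicate 3 lay just above the highest control (exact permutation p = 0.1).

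Of the RCAN genes *Rcan3* rose, while *Rcan1*, the gene with the NFAT-driven start site, was not called. *Rcan3* had 762, 849 and 855 gene reads in the controls and 1285, 1443 and 1193 in the Cre-labelled libraries. All 3 Cre-labelled libraries lay well above the controls, at 58.9, 65.7 and 62.9 against 32.8, 37.3 and 38.0 CPM, and replicate 3 lay between the other 2. The log2 difference of 0.79 (SE 0.095, edgeR adjusted p = 0.00109) was called and stayed called whichever library was left out, at 0.73 to 0.84. It was not called by limma on log2(TPM + 1), at 0.62, or on log2(TPM + 0.1), at 0.64 (limma adjusted p = 0.0275 and 0.029). *Rcan1* had 257, 248 and 270 against 218, 244 and 219 gene reads, so that each Cre-labelled count was below each control. Scaled to CPM the groups overlapped, at 10.9 to 12.01 against 9.998 to 11.6, and the log2 difference was -0.06 (SE 0.12, edgeR adjusted p = 0.755). The tables give 1 count per gene, so the 2 start sites of *Rcan1* printed above were not told apart. *Rcan2* had 2, 2 and 3 against 4, 1 and 0 gene reads, all of them in introns, and 0 exon reads in every library. With 0 exon reads, counting error alone allows up to 3 counts, or 0.136 to 0.148 CPM of exon reads. *Rcan3* therefore made up most of the RCAN pool, 61.1 ± 1.75% of its TPM in the controls and 74.1 ± 0.827% in the Cre-labelled libraries. Set against the summed calcineurin genes, RCAN genes came to 17.2, 17.4 and 19.2 per 100 TPM in the controls and 24.9, 28.0 and 25.7 per 100 TPM in the Cre-labelled libraries (exact permutation p = 0.1).

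**Figure D2:**
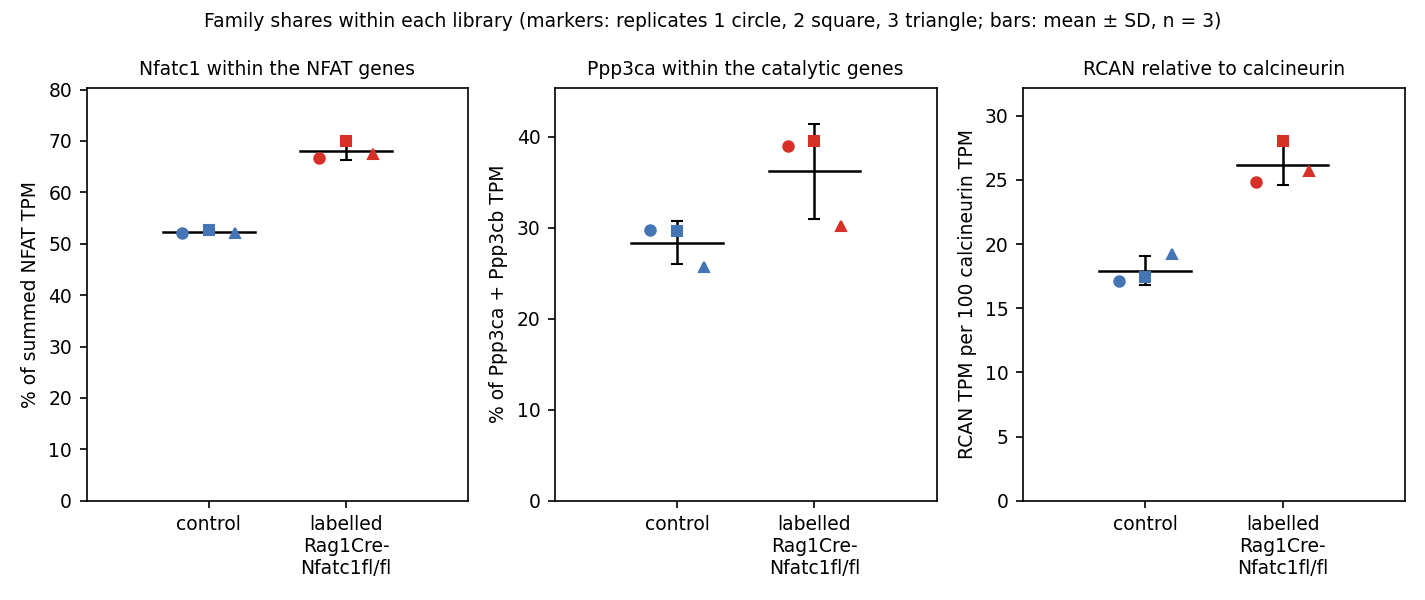
Within-library shares on linear axes from 0: *Nfatc1* in the summed TPM of the NFAT genes, *Ppp3ca* in that of the catalytic genes, and RCAN TPM per 100 TPM of calcineurin, in each control (blue) and Cre-labelled (red) library, with the mean ± SD (n = 3). The groups lie apart in each panel, and replicate 3 (triangle) is close to the controls only in the middle panel, at 30.2% against 29.8% for the highest control.

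Reads within exons, across exon-exon junctions and within introns were then tested apart, since junction reads come from spliced RNA and intron reads mostly from unspliced RNA. *Nfatc1* was higher in every class. It had 1455, 1577 and 1510 exon-exon reads in the controls and 2707, 3108 and 2015 in the Cre-labelled libraries, or 0.88 higher on the log2 scale (SE 0.12, edgeR adjusted p = 0.00163). Its intron reads were 82, 78 and 90 against 153, 207 and 108, or 1.10 higher on the log2 scale (SE 0.21, edgeR adjusted p = 0.00175). In each class the groups did not overlap and Cre-labelled replicate 3 was the lowest of its group. With 1 library left out the exon-exon call of *Nfatc1* held in 3 of 6 fits, at 0.77 to 0.98 (edgeR adjusted p of up to 0.0175). It was lost without any single control, where 2.6% to 3.02% of all genes were called. The intron call held in 2 of 6 fits, those without Cre-labelled replicate 1 or 3, at 0.92 to 1.24 over the 6 (edgeR adjusted p of up to 0.0266). In the fits that lost it, 1.81% to 2.54% of all genes were called. *Nfatc1* was the 1 gene called in exon-exon reads of the 9 tested, where 7.88% of all genes were called, and the 1 called in intron reads of the 7 tested, where 3.72% were. In exon reads *Nfatc1* and *Rcan3* were called, against 9.93% of all genes. Without Cre-labelled replicate 3 the same 4 genes were called in both classes, *Nfatc1*, *Nfatc2*, *Ppp3ca* and *Rcan3*, against 13.9% of all genes in exon and 12.3% in exon-exon reads. In exon-exon reads of that fit *Nfatc2* was at 0.53, *Ppp3ca* at 0.61 and *Rcan3* at 0.66 (edgeR adjusted p = 0.0072, 0.000389 and 0.00369). *Rcan3* had 133, 140 and 161 against 205, 239 and 248 exon-exon reads. Its log2 fold change there was 0.79, the same size as in all gene reads, but the adjusted p was 0.0109 (edgeR), just past the limit with all 6 libraries. *Nfatc2* had 21, 14 and 23 against 32, 37 and 24 intron reads, with a log2 difference of 0.89 (SE 0.29, edgeR adjusted p = 0.077).

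Whether the classes of 1 gene moved by different amounts was tested directly, with a term for each library. The intron difference of *Nfatc1* exceeded its exon difference by 0.23 on the log2 scale (SE 0.21, edgeR adjusted p = 0.739). Junction and other exon reads of *Nfatc1* moved by nearly the same amount, with a difference of 0.02 (SE 0.053, edgeR adjusted p = 0.951). For the intron test edgeR called none of the 7 genes tested, and none had an unadjusted p under 0.05, where 0.383% of all genes were called. For the junction test edgeR called none of 9, against 0.0858% of all genes, and 2 had an unadjusted p under 0.05. These were *Ppp3r1*, with a difference of -0.22 between junction and other exon reads (SE 0.07, adjusted p = 0.241), and *Nfatc3*, with a difference of -0.12 (SE 0.057, adjusted p = 0.548). By unadjusted p *Nfatc3* ranked 761 of the 10487 genes in that test. The junction share of *Ppp3r1* exon reads was 25.5%, 25.1% and 25.4% in the controls and 23.5%, 21.2% and 24.5% in the Cre-labelled libraries. Of its junction reads 50.3% to 59.5% were unique, and in unique reads alone the difference was -0.26 (edgeR adjusted p = 0.319). Beside this, junction reads made up 51.1% to 53.2% of all exon reads in the controls and 55.6% to 57.1% in the Cre-labelled libraries, and intron reads 2.33% to 2.53% against 1.94% to 2.15% of all gene reads.

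**Figure D3:**
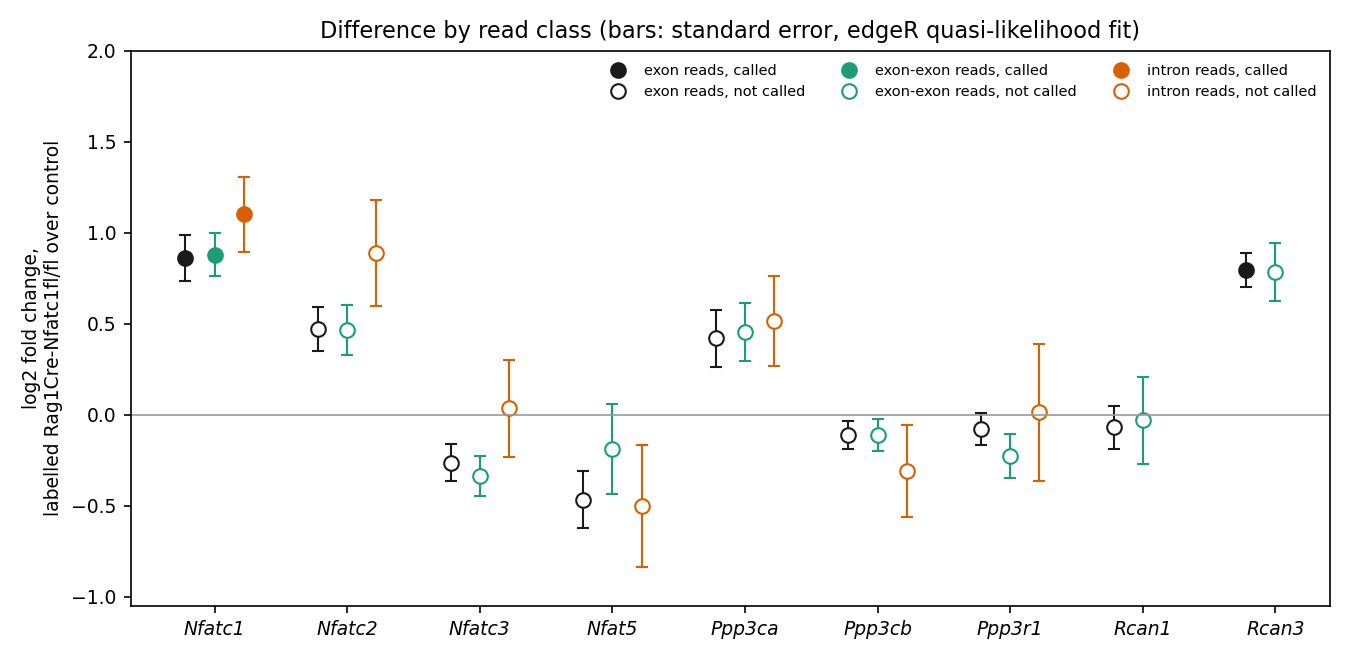
Log2 fold change of the libraries labelled *Rag1Cre-Nfatc1fl/fl* over control in exon, exon-exon and intron reads, with standard errors from the edgeR fit, filled where called and open where not. *Nfatc1* is filled in all 3 classes (0.86, 0.88 and 1.10), *Rcan3* in exon reads alone, and *Rcan1* and *Rcan3* had too few intron reads to be tested.

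The expression profiles closest to the called genes were taken as the smallest Euclidean distance between centred log2 CPM over the 6 libraries, among the 9472 genes that reached a mean of 5 CPM. Closest to *Nfatc1* were *Hlcs*, *Slamf6*, *Gramd1b*, *Tle4* and *Pde3b*, at distances of 0.136 to 0.173. *Slamf6*, a SLAM family receptor of T and NKT cells, went from 71.7 ± 1.73 to 126 ± 16.9 CPM, and *Pde3b*, a cyclic nucleotide phosphodiesterase, from 164 ± 5.67 to 280 ± 46.0 CPM. Closest to *Rcan3* were *Gpr108*, *Hacd3*, *Laptm5*, *Cited2* and *Atic*, at distances of 0.061 to 0.112. *Laptm5*, a lysosomal membrane protein of blood cells, went from 1775 ± 135 to 2940 ± 178 CPM.

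The wider pathway was described from 7 lists of genes around NFAT and calcineurin. Upstream, 18 genes of calcium release and entry were tested and 2 rose. Both encode pore subunits of store-operated calcium channels: *Orai1*, from 24.9 ± 2.4 to 35.9 ± 1.6 CPM (log2 fold change 0.53, edgeR adjusted p = 0.00827), and *Orai3*, from 25.8 ± 1.4 to 41.0 ± 3.5 CPM (0.67, edgeR adjusted p = 0.0028). At calcineurin itself, 8 other subunits, inhibitors and binding proteins were tested, of which 2 rose and 1 fell. *Homer2*, a scaffold protein that can compete with calcineurin for NFAT, went from 2.03 ± 0.34 to 31.7 ± 2.1 CPM (log2 fold change 3.96, edgeR adjusted p = 1.4e-05), while *Homer3*, its relative, went from 34.3 ± 0.46 to 19.0 ± 3.0 CPM (-0.85, edgeR adjusted p = 0.00258). *Fkbp1a*, the target of the calcineurin inhibitor tacrolimus, rose by 0.59 on the log2 scale (edgeR adjusted p = 0.00323). A further list held kinases that act on NFAT and genes of the NRON complex, which can hold NFAT in the cytoplasm. Of its 13 tested genes *Dyrk1b* fell by 0.59 (edgeR adjusted p = 0.00909). The members of that list with the highest CPM, *Kpnb1*, an importin, and *Csnk1a1*, a casein kinase that phosphorylates NFAT, had log2 fold changes of -0.07 and -0.18 (edgeR adjusted p = 0.716 and 0.12). Medians of the log2 fold changes were 0.05 for calcium entry, 0.24 for the calcineurin binders and -0.23 for the kinases. *Nfatc2ip*, which encodes a protein that binds NFATc2 and was the 1 tested gene of a list of other NFAT family and NFAT modifier genes, had a log2 fold change of -0.36 (edgeR adjusted p = 0.0789).

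Downstream, genes that textbooks list as NFAT targets in T cells were described. Of 17 tested, 8 rose and 1 fell, with a median log2 fold change of 0.86. The cytokine genes *Il13* and *Il4* went from 0.931 ± 0.34 to 23.3 ± 3.0 CPM and from 1.19 ± 0.40 to 16.9 ± 3.0 CPM, log2 fold changes of 4.63 and 3.81 (edgeR adjusted p = 2.99e-05 and 9.31e-05). *Cd40lg*, the ligand of CD40, rose by 3.65 and *Egr3*, a zinc finger factor induced by TCR signals, by 1.49 on the log2 scale (edgeR adjusted p = 8.88e-05 and 0.000147). The other genes that rose were *Egr2*, *Tnfsf11*, *Irf4* and *Lif*, and the gene that fell was *Il2ra*, the α chain of the IL-2 receptor, by 1.19 (edgeR adjusted p = 0.00254). *Irf4*, from 10.8 ± 0.85 to 27.5 ± 4.0 CPM (log2 fold change 1.35, edgeR adjusted p = 0.000486), was also the 1 gene called among 16 tested nuclear partners of NFAT, whose median was 0.08. The partners with the highest CPM, *Gata3*, a factor of T cell development, and *Jund*, a subunit of AP-1, had log2 fold changes of -0.35 and 0.06 (edgeR adjusted p = 0.0298 and 0.78). Among 7 tested osmotic stress genes known as targets of NFAT5, *Slc6a9*, a glycine transporter, went from 0.497 ± 0.14 to 3.70 ± 0.10 CPM (2.88, edgeR adjusted p = 0.000372). *Slc38a2*, an amino acid transporter, had a log2 fold change of -0.29 (edgeR adjusted p = 0.0788), while *Akr1b3*, the aldose reductase gene that defines this response, had a log2 fold change of 0.33 (edgeR adjusted p = 0.0454). Against these counts stand the 6.47% of all tested genes called higher and 3.51% called lower. The target list is textbook knowledge on stimulated T cells, and which factor acted on these genes was not tested. Like the other lists it was chosen with earlier results of these data known. Its counts and median are therefore a description and cannot test for an excess of targets.

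The counts of these lists changed with the libraries used. Without Cre-labelled replicate 3, where 8.42% of all tested genes were called higher and 4.95% lower, 9 targets rose and 2 fell, with a median of 0.69, and the calcium list had 3 higher and 1 lower. Added there were *Itpr1*, a calcium release channel of the endoplasmic reticulum, at 0.99 and *Saraf*, an inhibitor of store-operated calcium entry, at -0.70 (edgeR adjusted p = 0.000129 and 0.000176). The targets added were *Tnfrsf9*, a costimulatory receptor, at 0.53 and *Xcl1*, a chemokine gene, at -1.08 (edgeR adjusted p = 0.00464 and 0.00348). *Hspa1b*, a heat shock gene of the osmotic list, was added at 3.62 (edgeR adjusted p = 0.00123), and the calls of the calcineurin binders, kinases and partners were the same genes. With any 1 of the other 5 libraries left out, 5 to 7 targets rose and 0 to 1 fell. The calcium list kept *Orai3* in 1 of these fits and no call in the others. Calls fell among all tested genes too, to 2.82% to 5.03% higher and 0.745% to 2.45% lower. With all libraries these shares were 6.47% and 3.51%. *Homer2*, *Irf4*, *Slc6a9*, *Il4*, *Il13*, *Cd40lg* and *Egr3* were called in each of the 6 fits, and *Dyrk1b* in 1.

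**Figure D4:**
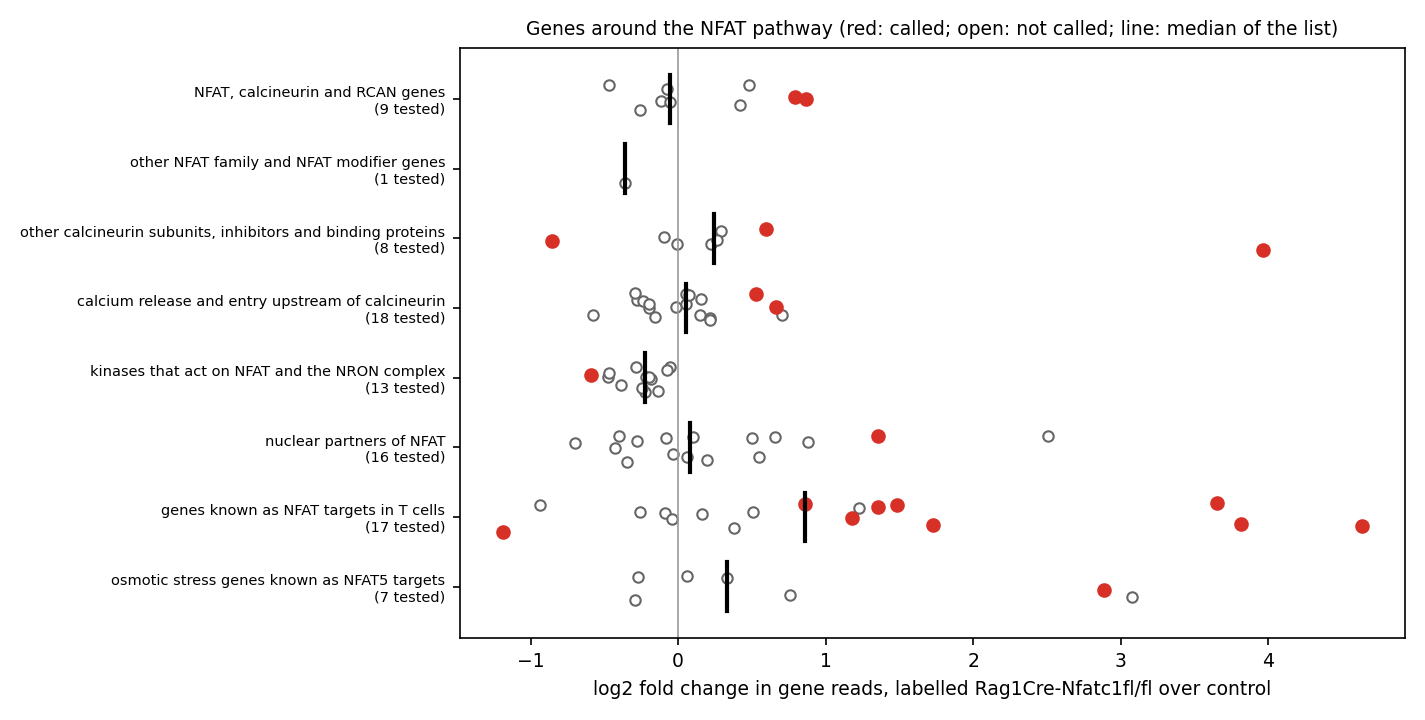
Log2 fold change in gene reads of each tested gene in the set of NFAT, calcineurin and RCAN genes and in 7 lists around them, red where called and open where not, with the median of each list as a line. All lists were chosen with earlier results of these data known. The target list has the highest median, 0.86, with 8 red points to the right and 1 to the left. The medians of the other lists lie between -0.36 and 0.33.

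The values of the long genes depended in part on Cre-labelled replicate 3. A smooth trend of log counts with exon length ran lower in that library, by 0.50 on the log2 scale at the exon length of *Nfat5* (18378 bases) and by 0.35 at that of *Nfatc3* (11726 bases), while at *Rcan1* (2506 bases) it ran higher by 0.14. The trend also differed between the groups apart from that library. At the length of *Nfat5* it was 0.15 in the controls and 0.04 in Cre-labelled replicates 1 and 2. Removing it thus also takes out a difference between the groups. With the trend removed from every library, 4 of the 9 genes were called, against 11.1% of all tested genes: *Nfatc1* at 0.98, *Rcan3* at 0.86, *Nfatc2* at 0.66 and *Ppp3ca* at 0.58 (edgeR adjusted p = 0.000264, 0.000377, 0.00108 and 0.00383). In the same fit the difference of *Nfatc3* was -0.05 and that of *Nfat5* -0.20, compared with -0.26 and -0.47 with the trend left in. The same 4 genes were called without Cre-labelled replicate 3, where 13.4% of all genes were. Leaving out any 1 control library instead left *Rcan3* as the only call in gene reads, where 3.62% to 4.02% of all genes were called. *Nfatc1* was at 0.84 to 0.89 in these fits.

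**Figure D5:**
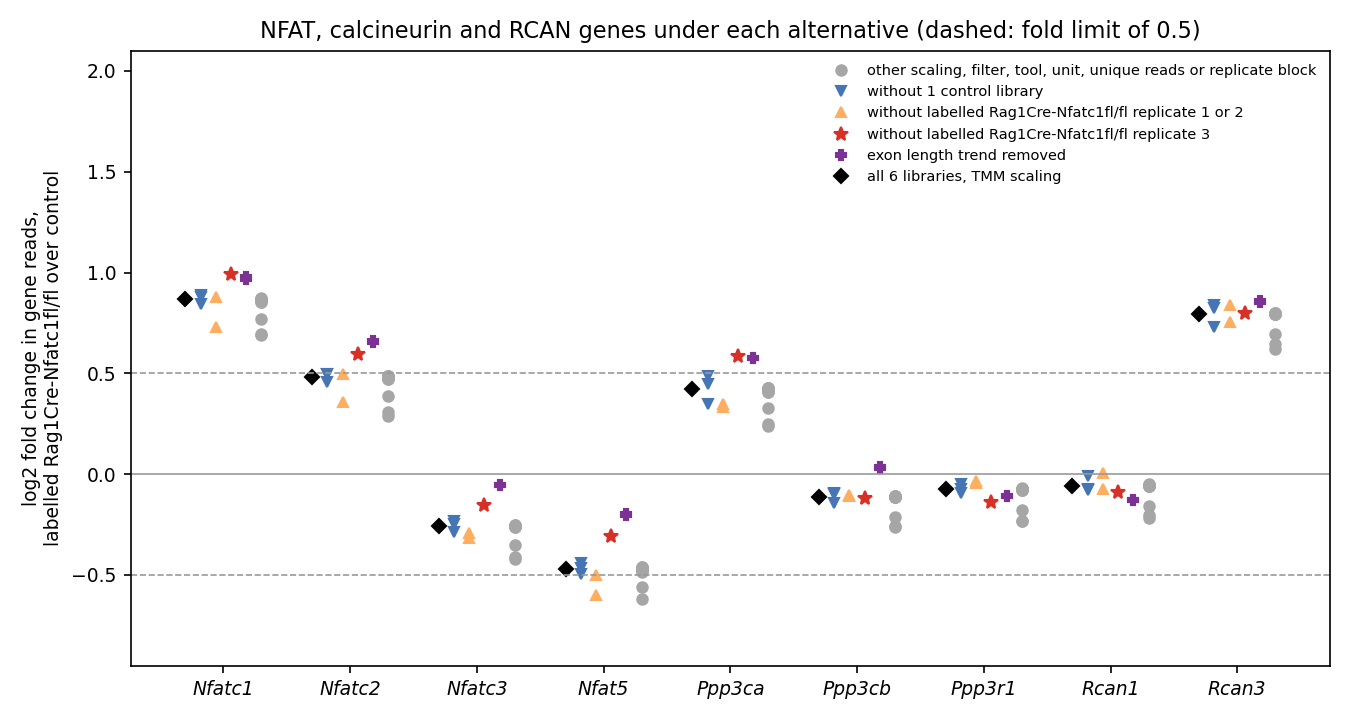
Log2 fold change in gene reads under each alternative, with 1 column of points per kind of alternative and dashed lines at the fold limit of 0.5. *Nfatc1* and *Rcan3* stay above 0.5 in every column, *Nfatc2* and *Ppp3ca* cross it without Cre-labelled replicate 3 (star) and with the exon length trend removed (plus sign), and *Nfatc3* and *Nfat5* move towards 0 in these columns.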

How the data were processed

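RNA-seq was measured in 6 libraries of γδ thymocytes, 3 labelled *Nfatc1fl/fl* and 3 labelled *Rag1Cre-Nfatc1fl/fl*, with groups and replicate numbers taken from the labels. According to the study's methods the authors trimmed the reads, aligned them with STAR to GRCm38, the build that the submitters' processing notes also give, and counted them with featureCounts. The deposited tables hold whole-number read counts per gene for 4 classes (gene, exon, exon-exon and intron), each as total and as unique reads. They are not laid out as featureCounts output, and their program is not given in the sources. Exon and intron reads add up to the gene reads for all genes. TPM was recomputed from the deposited exon counts and exon lengths. Floxed exon, strain and age come from the methods of the study.

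The 10 genes and all gene lists were chosen with earlier results of these data known. Of 41195 genes, 13185 passed filterByExpr. They were tested in R 4.3.3 with edgeR 4.0.16 (TMM, glmQLFit and glmQLFTest on genotype) and Benjamini-Hochberg adjusted over all 13185. Exon, exon-exon and intron reads were fitted likewise. Differences between read classes were tested as an interaction with a term per library, and family shares with two-sided exact permutation tests. The fits were also run on simulated counts. These held no outlying library and no exon length trend, so they do not cover what sets Cre-labelled replicate 3 apart. The total of 20734771 to 22638531 reads per library sets the precision, and limits for a count of 0 cover counting error only. Named genes were the 10 genes, for each called one the 5 closest profiles (with 0.5 CPM added before the log), and of each pathway list up to 4 called members by adjusted p and, with fewer than 2 called, then also the 2 genes of highest mean CPM. *Egr2*, *Tnfsf11*, *Lif*, *Il2ra*, *Itpr1*, *Saraf*, *Tnfrsf9*, *Xcl1* and *Hspa1b* were named after their values were seen, so that the counts of their lists are given whole. Alternatives were other scalings, no filter, DESeq2 1.42.0, limma-voom and limma on log2(TPM + 1) and log2(TPM + 0.1) (limma 3.58.1), unique reads, omission of each library, a block for the replicate number, and removal of the exon length trend. The block combined with the removed trend was added after seeing the data. Promoter windows came from RefSeq. Python 3.11.15 with matplotlib 3.10.9 drew the figures.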

Additional observations from a re-analysis of the deposited data

How the results depend on the processing

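In gene reads 1316 genes were called, and 1992 with DESeq2, 524 and 498 with limma on log2(TPM + 1) and log2(TPM + 0.1), and 3073 at an adjusted p under 0.05 with no fold limit. Leaving out 1 library gave 488 to 1796. Of the 9 tested genes of the set, 2 were called, and 4 with the exon length trend removed, also together with the replicate block. With limma on TPM 0 were called, with 5 and 4 at an unadjusted p under 0.05 for the pseudocounts of 1 and 0.1. Of all 13185 tested genes 4571 and 4477 were under 0.05 in those fits. The cause of the lost calls was not tested. With 1 library left out 1 to 4 were called, 4 without Cre-labelled replicate 3 and 1 without any single control. With library size as the only scaling the median of all genes moved to -0.107, and 700 of 1278 calls were higher, compared with 853 of 1316. The direction of *Ppp3cb* turned to 0.037 with the length trend removed and to 0.031 with the block added, and *Rcan1* ran from -0.090 to 0.0045 with 1 library left out.

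In exon reads leaving out 1 library gave 443 to 1775 calls, 1 to 4 of them in the set. In exon-exon reads it gave 284 to 1350 calls, 0 to 4 in the set (with 0, edgeR gave 3 to 5 at an unadjusted p under 0.05), and turned *Nfat5* (-0.39 to 0.009996) and *Rcan1* (-0.22 to 0.083). *Rcan3* joined *Nfatc1* there, making 2, with gene-read scaling and with the replicate block. In intron reads it gave 122 to 232 calls, 0 to 1 in the set (with 0, edgeR gave 2 to 3 at an unadjusted p under 0.05), and *Nfatc3* ran from -0.33 to 0.19 and *Ppp3r1* from -0.14 to 0.27. With gene-read scaling these 2 were -0.044 and -0.079, and *Nfatc3* was -0.0038 with the block. For intron against exon reads 1 library left out gave 13 to 44 calls, with *Nfatc3* at -0.019 to 0.49, *Nfat5* at -0.36 to 0.16, *Ppp3ca* at -0.10 to 0.23 and *Ppp3r1* at -0.077 to 0.35, and gene-read scaling put *Ppp3ca* at -0.0014. For junction against other exon reads gene-read scaling gave 14 calls, and *Nfatc2* at 0.0097, *Ppp3cb* at 0.041 and *Rcan3* at 0.0015. Leaving out 1 library gave 2 to 17 calls, with *Nfatc1* at -0.0080 to 0.051, *Nfatc2* at -0.10 to 0.041, *Ppp3cb* at -0.032 to 0.033, *Rcan1* at -0.16 to 0.20 and *Rcan3* at -0.18 to 0.050. These are differences that no fit called, so their sign carries no result.

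The replicate numbers pair the libraries by number only: deviations of same-numbered libraries correlated at 0.0631, 0.193 and 0.0605. Each library did correlate best with its own number in the other group, a hint from the data and not from the design. With the replicate block edgeR called 1171 genes in gene reads, and 2 of the set, *Nfatc1* and *Rcan3*. The 3 family shares kept their direction under every alternative tried for them. Depth limited the intron tests of *Rcan1* and *Rcan3* and every statement on *Rcan2*.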
